A study of Musca domestica with 16 samples.

Results

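The subject is the difference between females of house fly strains CSaY and CS, read from 4 of the 16 libraries of the series. These are 1 library of CSaY heads, 1 of CS heads, 1 of CSaY ovaries and 1 of CS ovaries. All flies were unmated adults 4 to 6 days old, kept at 25 °C with 12 hours of light and 12 of darkness, and polyA RNA was sequenced. In the labels, males of CSaY are YM males, with the male determiner on the Y chromosome, and males of CS are IIIM males, with the determiner on chromosome III. Females of both strains carry no male determiner. The other 12 libraries are 3 of CSaY (YM) male heads, 3 of CS (IIIM) male heads, 3 of CSaY (YM) testes and 3 of CS (IIIM) testes. They serve here as a readout and chose none of the genes ranked by their female differences. Genes that differ between the male groups were chosen from them, and their female values are given as well. The sources used here do not say how many flies were pooled in a library.

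The house fly, Musca domestica, is known for the many places in its genome where the male determiner can sit. Strains that differ in the chromosome with the determiner can also differ in the alleles they carry elsewhere. A comparison of their females leaves out the determiner itself. Female heads hold brain, eyes and fat body, the tissue that makes yolk proteins and immune peptides. Ovaries hold germ cells, nurse cells and the follicle cells that build the eggshell, and their RNA changes strongly as eggs mature.

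Levels are FPKM, fragment counts scaled to transcript length and library size, as the authors deposited them. Differences are CSaY minus CS on the scale of log2(FPKM + 1), which understates the change of low genes, and a fold is CSaY over CS, or the inverse, in plain FPKM. A gene entered a tissue's comparison with at least 5 FPKM in one strain. That left 7318 of 14631 genes in heads, 6760 in ovaries and 5286 in both tissues. The genes the account turns on are the 2431 of those 5286 (46.0%) whose difference had the same sign in heads and ovaries. With 1 library per strain and tissue the female differences have no replicate check, so every statement compares libraries and not strains. Only 52 genes carry an informative symbol, and all others are named by ID. Fewer cells of a type and less RNA per cell cannot be told apart in these tissues.

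The tissues themselves matched their labels in the few marker genes that carry a symbol. The neuronal sodium channel gene para-like stood at 56.2 FPKM in CSaY and 49.6 FPKM in CS female heads, against 0.162 and 0.293 FPKM in CSaY and CS ovaries. The neuropeptide gene pdf stood at 40.9 FPKM in CSaY and 68.5 FPKM in CS heads and was listed at 0 in both ovary libraries. The maternal patterning gene bcd stood at 249.7 FPKM in CSaY and 252.5 FPKM in CS ovaries and was listed at 0 in both head libraries. Opsin, chorion and vitelline membrane genes have no symbol in the table of names, so none was used as a marker here. Drosophila orthologs are listed by identifier alone and were not matched to names. Genes named below by ID alone may include some of them and were not identified. By estimate, one read of a low gene was worth 1.21 times as much FPKM in the CSaY as in the CS head library. In ovaries it was worth 0.974 times as much in the CSaY as in the CS library. The estimate rests on the most common ratio, that of 122 of 618 low genes in heads and 210 of 885 in ovaries. Read depth itself is unknown.

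The female head libraries ran against the male heads in their strain labels. A gene is called here when its q in the authors' deposited table lies below 0.05, and between male heads 873 of 9441 genes were called (9.25%). Of these, 684 entered the female head comparison, and 221 of them differed in the direction of the male heads (32.3%), while 463 differed in the opposite direction. Among the 134 of them past 2-fold in female heads, 28 had the male direction and 106 the opposite one. Genes tested but not called in male heads shared the direction of female heads in 46.9% of 6530 cases. Ovaries did not show this reversal. There 164 of 316 genes called in male heads had the male direction (51.9%), and past 2-fold 19 had it and 6 had the opposite one. Past 4-fold in ovaries this majority was gone, with 3 genes in the male direction and 4 in the opposite one. Against testes, where 1338 of 10275 genes were called in the authors' deposited table (13.0%), with 7.61% higher and 5.41% lower in CSaY, 345 of 766 genes in female heads (45.0%) and 300 of 590 in ovaries (50.8%) had the male direction. Among genes tested but not called in testes the shares were 50.3% in female heads and 50.1% in ovaries. Past 2-fold, 22 of 66 genes in female heads and 20 of 30 in ovaries had the testis direction. Whether this came from the flies, the libraries or their labels was not tested. All groups are kept as labelled, and CSaY and CS heads below mean the libraries labelled CSaY and CS.

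**Figure D1:**
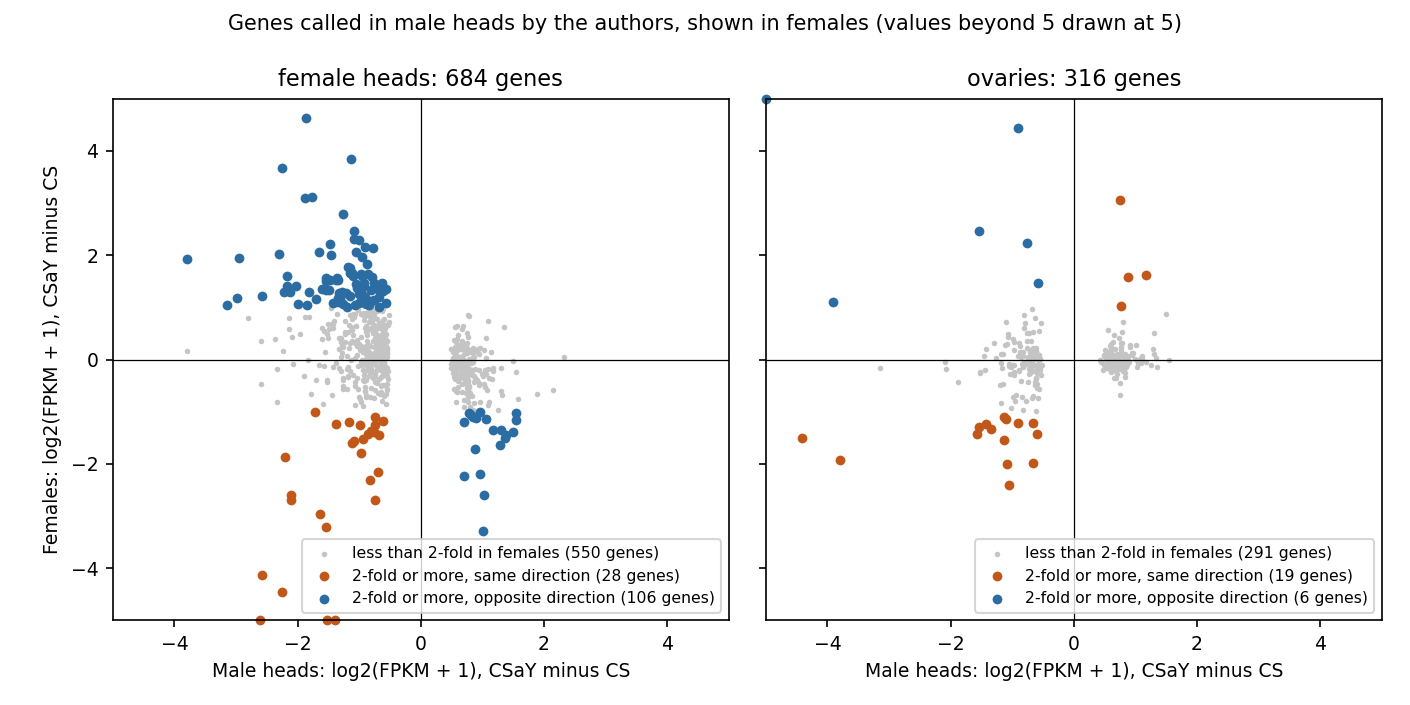
Each point is a gene called between CSaY and CS male heads in the authors' deposited table, with its male head difference on the x axis and its difference in female heads (left) or ovaries (right) on the y axis, all as log2(FPKM + 1), CSaY minus CS. In female heads 106 of the 134 genes past 2-fold lie in the quadrants of opposite direction, and in ovaries 6 of 25 do.

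A few genes that males transcribed in one strain alone show the same reversal gene by gene. The genes at or below 0.1 FPKM in both tissues of one male strain and at 1 FPKM or more in both tissues of the other number 4. LOC101900397 on chromosome 5 was listed at 0 in CSaY and stood at 2.68 FPKM in CS male heads, and its testis values were 0 FPKM in CSaY and 2.09 FPKM in CS. In female heads it stood at 7.55 FPKM in the CSaY library and was listed at 0 in the CS library. The female head pattern was thus the opposite of both male tissues, and the gene was listed at 0 in both ovary libraries.

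LOC101900811 was listed at 0 in CSaY male heads and CSaY testes, and stood at 5.14 FPKM in CS male heads and 2.11 FPKM in CS testes. In ovaries it was likewise listed at 0 in CSaY and stood at 3.02 FPKM in CS, without a call in the authors' deposited table. In female heads it stood at 4.75 FPKM in CSaY and was listed at 0 in CS, so female heads alone had the reverse order. LOC101899825 stood at 2.57 FPKM in CSaY male heads and 1.29 FPKM in CSaY testes and was listed at 0 in the same tissues of CS males. In female heads it was listed at 0 in CSaY and stood at 3.95 FPKM in CS, again in reverse. The authors' deposited table gives LOC101899825 no q in any comparison, and its levels were low throughout. The fourth gene, LOC101893315, stood at 0.129 FPKM or less in all female head and ovary libraries, too low to compare.

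**Figure D2:**
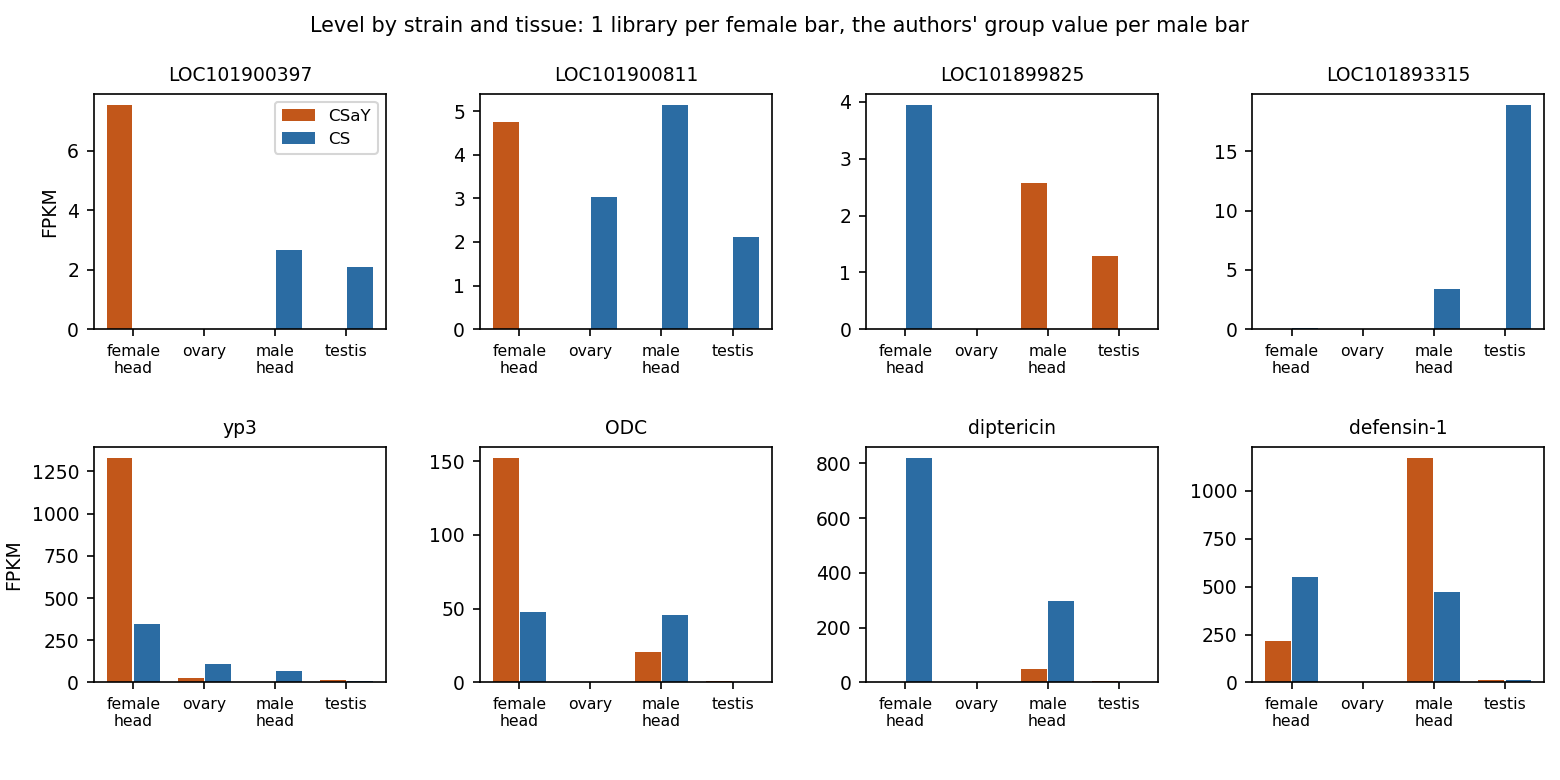
Bars give FPKM in CSaY (orange) and CS (blue) for the 4 genes that males transcribed in one strain alone (top row) and for 4 genes with a symbol (bottom row). A female bar is 1 library and a male bar is the authors' value for 3 libraries, so no error bars can be drawn. LOC101900397, LOC101900811 and LOC101899825 have the opposite strain order in female and male heads, as do yp3, ODC and defensin-1, while diptericin has the same order.

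The head libraries differed more from each other than the ovary libraries. In heads 453 of 7318 genes were past 2-fold (6.19%), 230 higher in CSaY (3.14%) and 223 lower (3.05%). In ovaries 157 of 6760 genes were past 2-fold (2.32%), 104 higher (1.54%) and 53 lower (0.784%). Over the 5286 genes of both tissues the median absolute log2 difference was 0.19 in heads and 0.10 in ovaries. Between the head libraries 73 of 9457 genes were called in the authors' deposited table (0.772%), 30 higher (0.317%) and 43 lower (0.455%) in CSaY. Between the ovary libraries 28 of 7831 were called in the authors' deposited table (0.358%), 24 higher (0.306%) and 4 lower (0.0511%). No gene was called in both. Of the 73 head calls 17 and of the 28 ovary calls 13 were listed at 0 in one strain.

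As the libraries are labelled, fewer genes had the same sign in heads and ovaries than opposite signs. These counts rest on the strain labels of the head libraries, and with those exchanged the counts of same and opposite signs would swap throughout. Of the 5286 genes, 1186 were higher and 1245 lower in CSaY in both tissues, and 2855 had opposite signs. The share with the same sign was smaller among genes with larger differences. Where both differences were at least 0.25 on the log2 scale it was 36.4% of 514 genes, at 0.5 it was 30.8% of 130, and at 0.75 it was 28.3% of 46. At 1, which is 2-fold, 4 genes had the same sign (0.0757% of 5286) and 20 had opposite signs (0.378%), 10 of these higher in heads and lower in ovaries and 10 the reverse. With a minimum of 10 FPKM these counts were 1 and 8. As the minimum of 5 FPKM sets who is counted, the genes beside it are given once. LOC101900081 was just inside with 4.49 FPKM in CSaY and 5.01 FPKM in CS heads, and LOC101896318 just outside with 4.998 FPKM in CSaY and 4.03 FPKM in CS heads.

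**Figure D3:**
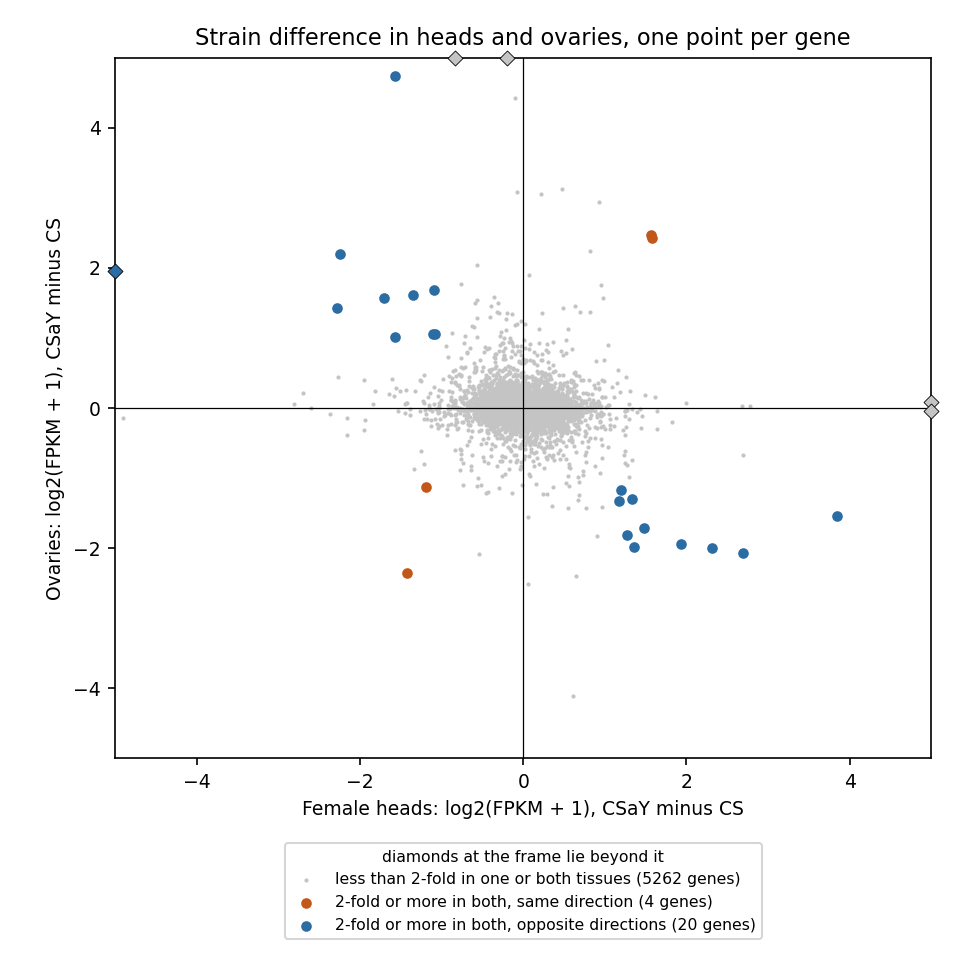
Each point is 1 of 5286 genes, with the difference of heads on the x axis and of ovaries on the y axis, both as log2(FPKM + 1), CSaY minus CS. The 4 orange points are past 2-fold in the same direction, and the 20 blue ones are past 2-fold in opposite directions. Points drawn as diamonds on the frame lie beyond it.

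The 4 genes past 2-fold in the same direction have no symbol. LOC101899155 on chromosome 1, a gene with 1 Drosophila ortholog, stood at 78.1 FPKM in CSaY and 25.6 FPKM in CS heads, and at 6.05 FPKM in CSaY and 0.316 FPKM in CS ovaries. It was thus 3.05-fold higher in CSaY heads, and its ovary level was high in 1 library alone. In males it was listed at 0 in both groups of heads and stood at 0.779 FPKM in CSaY and 0.768 FPKM in CS testes. LOC101889651 on chromosome 3 stood at 477.6 FPKM in CSaY and 160.3 FPKM in CS heads, 2.98-fold higher, and at 6.38 FPKM in CSaY and 0.338 FPKM in CS ovaries. In male heads its order was reversed, at 128.2 FPKM in CSaY and 375.8 FPKM in CS (q = 0.00138 in the authors' deposited table). That reversal is the only call among these 4 genes in male heads.

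LOC101893959 led the genes lower in both tissues. It stood at 7.05 FPKM in CSaY and 20.6 FPKM in CS heads, 2.93-fold lower, and at 2.79 FPKM in CSaY and 18.4 FPKM in CS ovaries, 6.59-fold lower. Male heads showed the same order at a smaller size, 14.3 FPKM in CSaY and 18.7 FPKM in CS (q = 0.361 in the authors' deposited table). LOC101900473 on chromosome 1 stood at 2.36 FPKM in CSaY and 6.67 FPKM in CS heads, 2.83-fold lower, and at 4.29 FPKM in CSaY and 10.6 FPKM in CS ovaries, 2.46-fold lower. Its testis level was far above both, 91.4 FPKM in CSaY and 93.0 FPKM in CS. All 4 genes had q of 0.0975 or more in heads and 0.151 or more in ovaries in the authors' deposited table.

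The next genes by the smaller of their head and ovary differences were moderate and mostly head genes with a low ovary level. Among those higher in CSaY, LOC101887561 on chromosome 2 stood at 129.3 FPKM in CSaY and 65.1 FPKM in CS heads and at 12.8 FPKM in CSaY and 3.64 FPKM in CS ovaries. LOC101892728 on chromosome 2 stood at 93.2 FPKM in CSaY and 47.8 FPKM in CS heads and at 35.3 FPKM in CSaY and 9.75 FPKM in CS ovaries, the highest ovary level of the 12 leading higher genes. LOC101898788 stood at 70.2 FPKM in CSaY and 36.5 FPKM in CS heads and at 8.92 FPKM in CSaY and 0.290 FPKM in CS ovaries. Their male heads gave no call in the authors' deposited table.

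LOC101889985 on chromosome 2 stood at 75.4 FPKM in CSaY and 42.2 FPKM in CS heads, and at 7.05 FPKM in CSaY and 0.710 FPKM in CS ovaries. Male heads had the reverse order, 7.36 FPKM in CSaY and 13.1 FPKM in CS (q = 0.00447 in the authors' deposited table). LOC101897237 on chromosome 2 did the same, with 110.7 FPKM in CSaY and 70.9 FPKM in CS female heads and 125.5 FPKM in CSaY and 188.7 FPKM in CS male heads, with q = 0.0228 in the authors' deposited table. With LOC101889651 these are the 3 of the 12 leading higher genes that were called in male heads, and each was called against its female direction. The other leading higher genes were LOC101900070, LOC101891950, LOC101887780, LOC101897212 and LOC101893644, with head differences of 0.70 to 1.03 on the log2 scale.

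LOC101893644 belongs to the ortholog group of CPI, CYB1 and CYB2 and had by far the highest head level among the 12, 8293 FPKM in CSaY and 4465 FPKM in CS. Its ovary level was 6.02 FPKM in CSaY and 3.40 FPKM in CS. The group has 8 members, of which 7 lie on the same scaffold of chromosome 2, and the members did not move together. In heads CPI stood at 207.9 FPKM in CSaY and 96.7 FPKM in CS, while CYB1 stood at 151.3 FPKM in CSaY and 212.1 FPKM in CS, and 5 of the 7 members at the minimum were lower. The sources used here do not say how reads were split among related copies, and single copies are therefore uncertain.

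Of the 12 leading lower genes, 1 was called in male heads, in the same direction. LOC101898644 on chromosome 4 stood at 677.6 FPKM in CSaY and 1146 FPKM in CS female heads, at 3.69 FPKM in CSaY and 6.74 FPKM in CS ovaries, and at 317.7 FPKM in CSaY and 631.4 FPKM in CS male heads, with q = 0.00138 in the authors' deposited table. It was 1.69-fold lower in female heads, 1.83-fold lower in ovaries and 1.99-fold lower in male heads, so 3 tissues had the same order and a similar size. LOC101896594 on chromosome 1 stood at 110.9 FPKM in CSaY and 282.1 FPKM in CS female heads and at 14.0 FPKM in CSaY and 26.5 FPKM in CS ovaries. Its male heads had 100.4 FPKM in CSaY and 89.3 FPKM in CS, without a call.

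LOC101900949 on chromosome 3 stood at 16.2 FPKM in CSaY and 39.1 FPKM in CS heads, at 5.04 FPKM in CSaY and 9.53 FPKM in CS ovaries, and at 9.49 FPKM in CSaY and 54.7 FPKM in CS testes. The testis difference was called with q = 0.00107 in the authors' deposited table, so CSaY was lower in all 3 tissues. LOC101897602 on chromosome 2, which has no Drosophila ortholog listed, stood at 64.3 FPKM in CSaY and 100.3 FPKM in CS heads and at 10.5 FPKM in CSaY and 20.3 FPKM in CS ovaries. In testes it had the reverse order, 82.1 FPKM in CSaY and 21.8 FPKM in CS (q = 0.00107 in the authors' deposited table). The other leading lower genes, LOC101895773, LOC101900991, LOC101888115, LOC101893522, LOC101897044 and LOC101896624, differed by 1.57-fold to 1.87-fold in heads and 1.61-fold to 2.59-fold in ovaries.

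**Figure D4:**
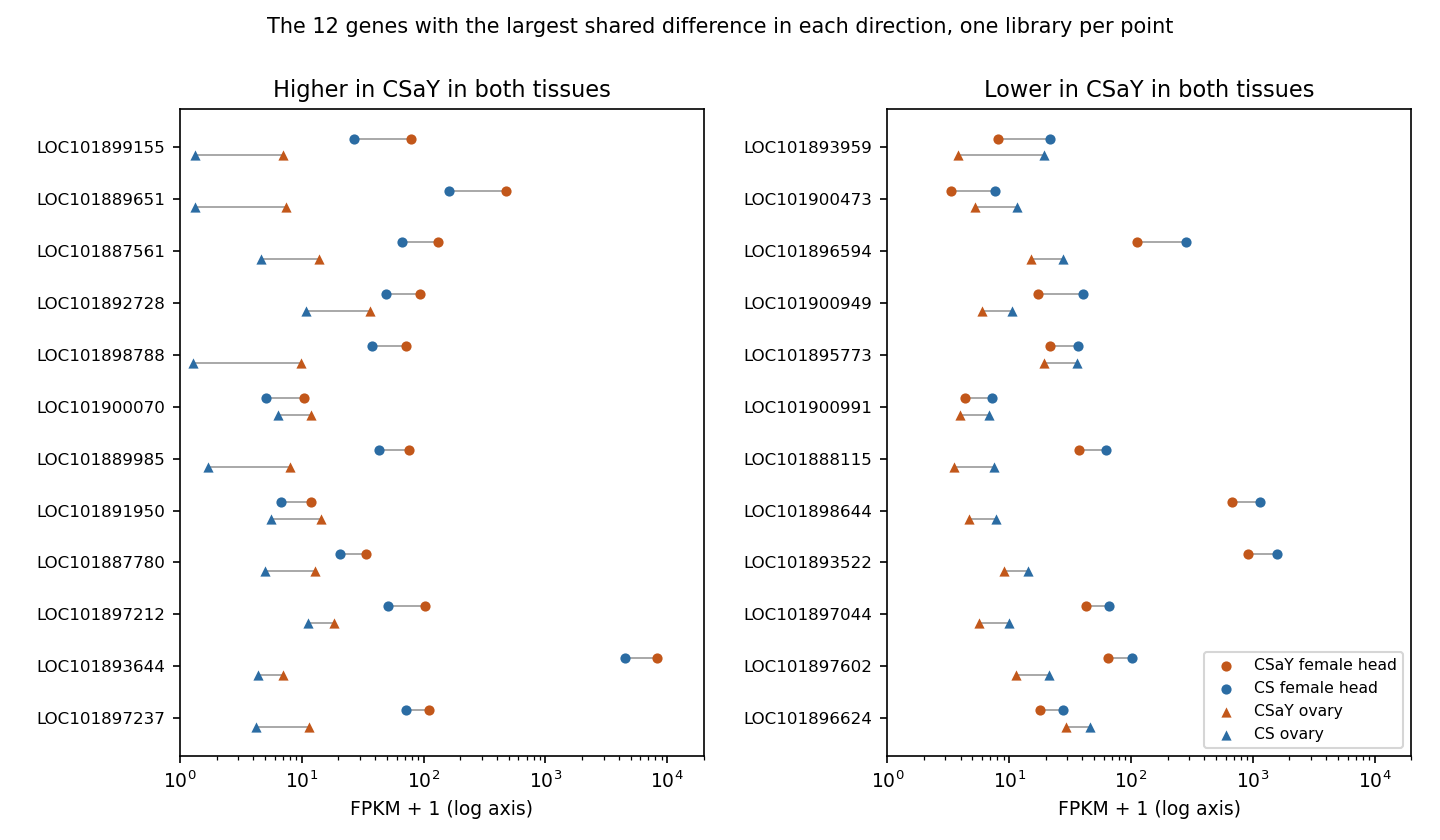
Each row is 1 of the 12 leading genes higher (left) or lower (right) in CSaY in both tissues, ordered by the smaller of the head and ovary differences. Circles are female heads, triangles are ovaries, and the x axis is FPKM + 1 on a log scale with 1 library per point. In most rows the circles lie right of the triangles.

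A high head level with a low ovary level was common to these genes. The mean of both strains was higher in heads than in ovaries for 10 of the 12 leading higher and 10 of the 12 leading lower genes, while it was so for 26.1% of all 5286 genes. In ovaries 10 of the 12 higher and 7 of the 12 lower genes stayed below 15 FPKM, as did 10.2% of the 5286. A low level carries more counting error per read, and its part in the ovary differences was not tested.

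Genes of shared direction were called in males in either direction, at shares near those of genes with opposite signs. Of 2428 tested in male heads 116 were called in the authors' deposited table (4.78%), beside 9.25% of all tested genes, and 39 of the 116 had the female direction. In testes 200 of 2415 were called in the authors' deposited table (8.28%), beside 13.0% of all, and 93 of the 200 had the female direction. These genes reach the minimum in both female tissues, and of all 5286 such genes 272 were called in male heads in the authors' deposited table. Of the 2855 genes with opposite signs in heads and ovaries, 156 were called in male heads in the authors' deposited table (5.47%), 50 in the direction of female heads and 106 in that of ovaries. In testes 257 of 2832 genes with opposite signs were called in the authors' deposited table (9.07%).

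The genes past 2-fold in opposite directions include the yolk protein gene yp3, whose product is taken up by the growing egg. In heads yp3 stood at 1328 FPKM in CSaY and 346.7 FPKM in CS, 3.83-fold higher (q = 0.104 in the authors' deposited table). In ovaries it stood at 27.7 FPKM in CSaY and 108.9 FPKM in CS, 3.93-fold lower (q = 0.0163 in the authors' deposited table). Male heads had the order of the ovaries, 3.82 FPKM in CSaY and 66.0 FPKM in CS. LOC101891084, another member of the yp3 ortholog group, moved like it, with 11.9 FPKM in CSaY and 0.992 FPKM in CS heads and 1.31 FPKM in CSaY and 8.72 FPKM in CS ovaries.

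The yp3 ortholog group has 7 members. In heads 5 reached the minimum, of which 2 were past 2-fold higher and 0 lower, with a median log2 difference of 0.71 beside -0.01 over all 7318 genes. In ovaries 2 reached it, and both were past 2-fold lower. LOC101889640 did not share in this, at 890.1 FPKM in CSaY and 913.4 FPKM in CS heads. That is the highest level of the group in CS heads, and the gene lies on the scaffold of yp3 on chromosome 3.

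Where genes at least 1.5-fold apart in opposite directions in both tissues were called in male heads, the call had the ovary direction. Of the 20 genes past 2-fold in both, 19 were tested in male heads. There 8 were called in the authors' deposited table (42.1%, beside 9.25% of all), all 8 in the direction of ovaries. At 1.5-fold in both tissues 63 genes had opposite signs (1.19% of 5286), and 19 of the 62 tested in male heads were called in the authors' deposited table (30.6%, beside 9.25% of all), and all 19 had the direction of ovaries. LOC101901683 on chromosome 2 stood at 3.22 FPKM in CSaY and 9.77 FPKM in CS female heads, at 23.9 FPKM in CSaY and 7.13 FPKM in CS ovaries, and at 13.4 FPKM in CSaY and 5.38 FPKM in CS male heads. LOC101892778 on chromosome 3 stood at 471.9 FPKM in CSaY and 187.3 FPKM in CS female heads, at 1.85 FPKM in CSaY and 5.99 FPKM in CS ovaries, and at 48.1 FPKM in CSaY and 142.3 FPKM in CS male heads. In testes LOC101901683 stood at 7.78 FPKM in CSaY and 6.32 FPKM in CS, and LOC101892778 at 17.2 FPKM in CSaY and 35.7 FPKM in CS, so the order in both genes was that of ovaries and male heads. Testes were less uniform over the set. Of the 20 genes 17 were tested there, and 6 were called in the authors' deposited table (35.3%, beside 13.0% of all). Of these 6, 4 had the direction of ovaries and 2 that of female heads. At 1.5-fold 16 of 58 tested were called (27.6%), 11 in the direction of ovaries and 5 in that of female heads.

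A block of genes with high levels in the CSaY ovary library was nearly silent in the CS ovary library. On the log2(FPKM + 1) scale 25 of 6760 genes were at least 8-fold higher in CSaY ovaries (0.370%) and 1 gene was at least 8-fold lower (0.0148%), and the values themselves picked these genes. Among the 25, 19 stood below 1 FPKM in CS ovaries, 8 of them listed at 0, and 12 reached 100 FPKM or more in CSaY ovaries. Together they made up 2.30% of the summed FPKM of the CSaY ovary library and 0.00410% of that of the CS ovary library. Only 10 of the 25 were called in the authors' deposited table.

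Some of the genes with the highest CSaY ovary levels lay side by side. LOC101889197, LOC101889373 and LOC101889547 lie on scaffold NW_004765970 of chromosome 4, between positions 89110 and 122976, in the coordinates of the authors' deposited table, and the sources used here do not name their build. They stood at 2700, 1429 and 8662 FPKM in CSaY ovaries, against 0.648, 0.369 and 1.72 FPKM in CS ovaries. Despite this size they were not called between the ovary libraries in the authors' deposited table. LOC101889373 has a single Drosophila ortholog listed, FBgn0000358, whose name was not looked up. All 3 stood at 0.327 FPKM or less in both female head libraries. In testes each was higher in CS, and LOC101889547 for example stood at 1.23 FPKM in CSaY and 11.7 FPKM in CS. Only LOC101889197 was called in testes, with q = 0.0261 in the authors' deposited table, against 0.461 for LOC101889373 and 0.0516 for LOC101889547.

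A second run of 4 genes lies on scaffold NW_004764969 of chromosome 3, between positions 255512 and 289618. LOC101890831 stood at 3933 FPKM in CSaY and 0.688 FPKM in CS ovaries, LOC101891006 at 2592 FPKM in CSaY and 0.407 FPKM in CS, and LOC101891348 at 188.3 FPKM in CSaY and 0.119 FPKM in CS. LOC101891179, the fourth, stood at 7.62 FPKM in CSaY ovaries and was listed at 0 in CS ovaries. It alone of this run was called between the ovary libraries in the authors' deposited table. All 4 have a single Drosophila ortholog listed and stood below 1 FPKM in both female head libraries. The pairs LOC101901529 with LOC101901695 and LOC101892324 with LOC101892490 share a scaffold each, so 11 of the 25 genes have a neighbour among them.

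Most of these ovary genes had no level in heads, yet not all. In female heads 16 of the 25 stayed below 1 FPKM and 7 reached the minimum. LOC101888407 on chromosome 5 stood at 398.5 FPKM in CSaY and 9.06 FPKM in CS ovaries, a 44.0-fold difference, while its heads had 128.4 FPKM in CSaY and 147.8 FPKM in CS. LOC101900946 on chromosome 5 stood at 163.2 FPKM in CSaY and 6.62 FPKM in CS ovaries, 24.7-fold higher, with 91.6 FPKM in CSaY and 98.4 FPKM in CS heads. LOC101894016 on chromosome 3 stood at 484.2 FPKM in CSaY ovaries and was listed at 0 in CS ovaries. Heads gave it 293.5 FPKM in CSaY and 525.5 FPKM in CS. These ovary differences thus had no counterpart of their size in heads.

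A few genes with a symbol and a high ovary level, picked for their known roles, were within 2-fold between the ovary libraries, apart from yp3. So were all but 2.32% of the 6760 genes, so this does not set them apart. The maternal gene bcd differed by -0.02 on the log2 scale between the ovary libraries, and Sxl, the master sex gene of Drosophila, had 100.7 FPKM in CSaY and 97.95 FPKM in CS ovaries. The chaperonin gene CCT-eta stood at 335.8 FPKM in CSaY and 294.3 FPKM in CS ovaries. The yolk gene yp3, as above, went the other way. Ovary stages were not labelled, and their part in the block was not tested.

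**Figure D5:**
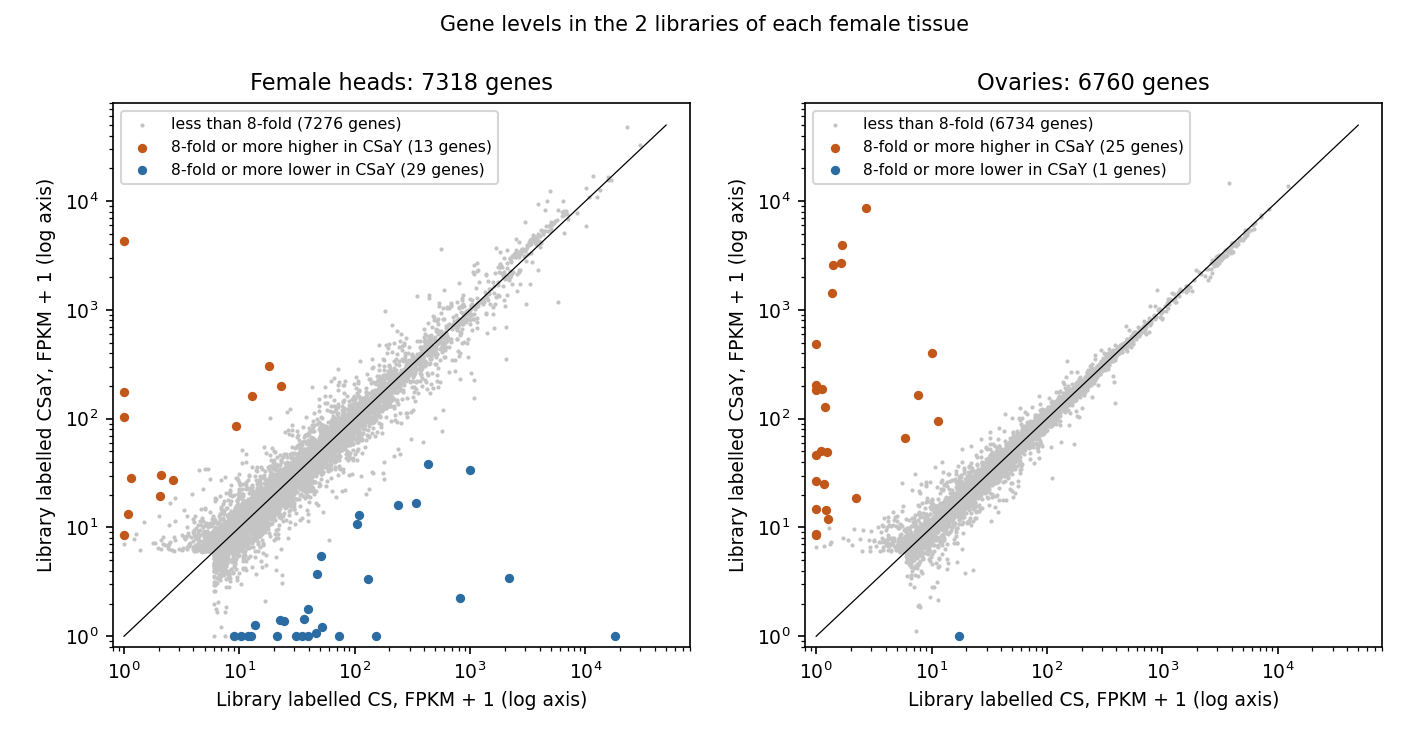
Levels of all genes at the minimum in female heads (left, 7318 genes) and ovaries (right, 6760 genes), as FPKM + 1 on log axes, with the library labelled CS on the x axis and that labelled CSaY on the y axis. Points on the line have equal levels. Ovaries lie close to the line apart from 25 orange genes at least 8-fold higher in CSaY, while heads have 13 such genes and 29 blue genes at least 8-fold lower.

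Many of the genes much lower in CSaY heads belong to a few gene families. As the libraries are labelled, more genes with a large head difference were lower than higher in CSaY. With the head labels exchanged the 2 counts would swap. At least 8-fold, on the log2(FPKM + 1) scale, 29 of 7318 genes were lower (0.396%) and 13 were higher (0.178%) in CSaY heads, again picked on the values themselves. Among the 29 lower genes, 18 belong to 5 ortholog groups with more than 1 such gene, and 17 share a scaffold with another. Among the 13 higher genes, 4 belong to 2 such groups and 6 share a scaffold with another. In ortholog group 1491 all 9 genes at the minimum in heads were past 2-fold lower, with a median log2 difference of -3.99, and in group 1498 all 6 were, with a median of -4.26. In group 1787 it was all 4, with a median of -4.40. These groups carry no symbol, and none of their genes reached the minimum in ovaries.

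The 5 genes of group 1498 that were at least 8-fold lower lie on 1 scaffold of chromosome 2. LOC101888936 was listed at 0 in CSaY heads and stood at 153.3 FPKM in CS heads (q = 0.0086 in the authors' deposited table). LOC101901516 stood at 4.47 FPKM in CSaY and 49.8 FPKM in CS female heads, and at 46.6 FPKM in CSaY and 137.2 FPKM in CS male heads. Here females and males had the same order, unlike most genes called in male heads. In male heads 3 of 6 tested genes of group 1491, 2 of 7 of group 1498 and 2 of 2 of group 1787 were called lower in CSaY in the authors' deposited table, beside 5.86% of all tested genes, and 0 were called higher, beside 3.39%.

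Of the 13 genes at least 8-fold higher in CSaY heads, 5 were called in male heads in the authors' deposited table. All 5 were lower in CSaY, beside 5.86% of all tested genes, and the others were not called there. The 29 genes at least 8-fold lower did not show this reversal. Of them 7 were called in male heads in the authors' deposited table, 6 in the direction of female heads. The neighbours LOC101889521 and LOC101889169 on chromosome 5 stood at 162.2 and 200.7 FPKM in CSaY female heads, against 11.8 and 22.1 FPKM in CS female heads. In male heads they stood at 4.05 and 6.94 FPKM in CSaY, against 23.0 and 25.9 FPKM in CS. LOC101896652 and LOC101896832 share a locus on chromosome 1, stood at 4261 and 102.1 FPKM in CSaY heads and were listed at 0 in CS heads. In every other tissue both strains were close, as in ovaries with 3458 FPKM in CSaY and 3550 FPKM in CS for LOC101896652. A value of 0 for such a gene can be a failed estimate. The same holds for LOC101898400, listed at 0 in CSaY heads and at 18115 FPKM in CS heads, a gene at 3809.5 FPKM or more in all other groups.

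Antimicrobial peptide genes, whose products kill bacteria, were lower in CSaY heads. Diptericin, on chromosome 3, stood at 1.23 FPKM in CSaY and 818.8 FPKM in CS heads. Its neighbour in the same ortholog group, LOC101896897, stood at 2.40 FPKM in CSaY and 2194 FPKM in CS heads. Both had the same order in male heads, where LOC101896897 stood at 160.2 FPKM in CSaY and 463.0 FPKM in CS (q = 0.00138 in the authors' deposited table). Between the female heads both had q = 0.998 in the authors' deposited table.

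Defensin-1 stood at 215.7 FPKM in CSaY and 550.8 FPKM in CS female heads, 2.55-fold lower. All 5 genes of its ortholog group lie on a scaffold of chromosome 5 and were lower in CSaY heads. Of them 4 were past 2-fold, beside 3.05% of all 7318 genes, and the median log2 difference was -1.41. LOC101887872 of this group stood at 26.9 FPKM in CSaY and 179.5 FPKM in CS heads and was called with q = 0.0086 in the authors' deposited table. Male heads differed among the members, with defensin-1 higher and LOC101887872 lower in CSaY. Lysozyme, an enzyme that breaks bacterial walls, went up instead, at 150.1 FPKM in CSaY and 98.7 FPKM in CS heads. All 7 members of its ortholog group at the minimum were higher in CSaY, none past 2-fold, beside 3570 of all 7318 genes higher.

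In ovaries none of the 3 antimicrobial genes with a symbol reached the minimum. Diptericin stood at 0.526 FPKM in CSaY and 1.62 FPKM in CS ovaries, and defensin-1 was listed at 0 in both. The immune difference of the heads could therefore not be compared in ovaries.

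ODC, which encodes the ornithine decarboxylase that starts polyamine synthesis, was the only gene with a symbol called between the head libraries in the authors' deposited table (q = 0.0353). It stood at 152.0 FPKM in CSaY and 47.7 FPKM in CS female heads, 3.18-fold higher. Male heads had the reverse order, 20.5 FPKM in CSaY and 45.6 FPKM in CS. In ovaries ODC was listed at 0 in CSaY and stood at 0.103 FPKM in CS.

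Detoxification genes did not share a direction in CSaY heads. Cytochrome P450 enzymes oxidise foreign compounds, and of the 5 listed P450 genes at the minimum 2 were past 2-fold lower and 0 higher, with a median log2 difference of -0.75. CYP6D3 stood at 29.9 FPKM in CSaY and 94.6 FPKM in CS heads, 3.16-fold lower. CYP6A24 stood at 377.9 FPKM in CSaY and 799.0 FPKM in CS heads, 2.11-fold lower, while CYP6D8 stood at 3155 FPKM in CSaY and 2307 FPKM in CS.

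In the ortholog groups of these P450 genes 5 of 31 members were past 2-fold lower and 0 higher, with a median of -0.08, so most members were close. In male heads 0 of 39 tested members were called higher and 1 lower in the authors' deposited table, beside 3.39% and 5.86% of all tested genes. In ovaries 4 members reached the minimum, none past 2-fold, all lower in CSaY, with a median of -0.30. The reductase gene CPR, which feeds electrons to P450 enzymes, was lower in both tissues by less than 0.25, with 254.9 FPKM in CSaY and 297.3 FPKM in CS heads and 207.8 FPKM in CSaY and 215.1 FPKM in CS ovaries. Glutathione S-transferases conjugate toxic compounds, and neither listed gene, GST or GST-6A, was past 2-fold in heads or ovaries. Of the chemosensory genes Gr2 stood at 3.19 FPKM in CSaY and 8.27 FPKM in CS heads, past 2-fold lower, and IR25a at 5.30 FPKM in CSaY and 9.42 FPKM in CS heads, within 2-fold. The heat shock genes HSP70 and hsp20 were within 2-fold in both tissues.

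Serpins inhibit the proteases of immune and clotting cascades. In heads neither of the 2 listed serpins at the minimum was past 2-fold, and both were higher in CSaY. SPN9 stood at 30.3 FPKM in CSaY and 18.8 FPKM in CS female heads, and at 24.2 FPKM in CSaY and 41.6 FPKM in CS male heads, in reverse order. In the ortholog group of SPN9, SPN13 and Spn2, 4 of 7 members at the minimum were higher and 3 lower in CSaY female heads. In male heads 6 of 9 tested were called lower in CSaY in the authors' deposited table, beside 5.86% of all tested genes.

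Most genes with a symbol at the minimum in both tissues differed little between the ovary libraries, as did most of all 5286 genes. Of the 52 genes, 42 entered the head comparison, with 4 past 2-fold higher (yp3, ODC, TPS and CPI) and 5 lower (diptericin, defensin-1, CYP6A24, CYP6D3 and Gr2), a share of 21.4% beside 6.19% of all genes. In ovaries 23 entered, and yp3 alone was past 2-fold (4.35%, beside 2.32% of all genes). Of the 22 in both tissues, 20 were within 0.25 on the log2 scale in ovaries, where the median absolute difference of all 5286 genes was 0.10. Among them 11 were higher in both tissues, Sgf11, Sxl, THY, armadillo, SOD2, CCT-eta, TCTP, SPN15, HSP70, HR96 and caspase-1, and 5 were lower, SOD1, CPR, GST-6A, hsp20 and AQP. The largest smaller difference among these 16 was 0.15, so none had a shared difference of size.

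Superoxide dismutase gene SOD2, which protects mitochondria from oxygen radicals, had that value, with 738.1 FPKM in CSaY and 660.1 FPKM in CS heads and 356.6 FPKM in CSaY and 320.9 FPKM in CS ovaries. The catenin gene armadillo, of adhesion and Wnt signalling, stood at 67.3 FPKM in CSaY and 60.1 FPKM in CS heads and at 330.1 FPKM in CSaY and 297.9 FPKM in CS ovaries. The chaperone gene HSP70 stood at 1862 FPKM in CSaY and 1428 FPKM in CS heads and at 3154 FPKM in CSaY and 3077 FPKM in CS ovaries. Sxl stood at 21.2 FPKM in CSaY and 15.6 FPKM in CS heads. No neighbour in this set can be ordered by its difference, since no spread between libraries of a strain is known.

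The differences in females were spread over all autosomes. By scaffold, the share of genes past 2-fold in heads was 7.46% on chromosome 1, 6.16% on 2, 5.37% on 3, 4.21% on 4 and 4.60% on 5, and 3 of 21 genes on X. In ovaries it was 1.55% on chromosome 1, 2.09% on 2, 2.24% on 3, 1.74% on 4 and 1.34% on 5, and 0 of 21 on X. Chromosome 3, which carries the determiner in CS males, was thus within the range of the other autosomes in heads. In ovaries its share was the highest by a small margin over chromosome 2, and lay below the 2.32% of all 6760 genes, placed or not. The share of genes with the same sign in heads and ovaries lay between 41.2% on chromosome 1 and 48.3% on chromosome 2 over the autosomes.

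The share of genes past 2-fold was larger among genes with related copies or without a Drosophila ortholog than among single-copy genes. In heads 3.45% of 4549 single-copy orthologs were past 2-fold, against 154 of 1030 genes in groups with several copies in both species and 8.76% of 605 genes with no Drosophila ortholog listed. In ovaries the shares were 1.18% of 4650, 4.82% of 560 and 5.17% of 580. No test was made of these shares, and related copies and neighbours are not independent of each other.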

How the data were processed

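PolyA RNA was extracted with TRIzol and columns and made into TruSeq libraries, as the labels' protocols state. Per the submitters' processing notes the tools were Cufflinks 2.2.1, Bowtie2 2.1.0.0, TopHat2 2.0.8b and CASAVA 1.8.2. The sources used here give neither their roles nor the genome build. The authors deposited 1 FPKM value per group and gene and a q-value per comparison, and the sources used here do not say how q was adjusted. A female value is 1 library and a male value is the authors' for 3 libraries, so no spread can be given, and read depth is unknown. Their q between 2 female libraries compares libraries, not strains. Whether libraries came from separate flies is not stated in the labels.

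Differences were log2(FPKM + 1), CSaY minus CS, with a minimum of 5 FPKM in one strain, a fold of 2 and no test of their own. The code was tested on simulated data. The ratio of FPKM per read came from genes below 0.3 FPKM, 618 in heads and 885 in ovaries. Gene IDs were matched to a RefSeq table of names (12168 of 14631, 83.2%), of which 52 had a symbol. No sequence was used. The authors' table places 11231 genes on a chromosome through their scaffold, and 1732 genes share a locus. Starts are counted from 1.

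The genes and lists were chosen with earlier results of these data known. The rule named the first 12 genes in each direction by the smaller of the head and ovary differences, genes with a symbol past 2-fold in both tissues or called in a female comparison, up to 4 members per list, and the 4 largest opposite differences of each kind. Other genes with a symbol, ortholog groups, genes past 8-fold and genes that one male strain alone transcribed were chosen after their values were seen. Among 21 gene lists 9 had a member with a symbol and 12 had none. The tools were pandas 2.3.3, numpy 2.4.6, matplotlib 3.10.9 and scipy 1.17.1 under Python 3.11.15.

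Alternatives were a pseudocount of 0.1, minima of 1 and 10 FPKM or none, median-centred differences, folds of 1.5 and 4, the authors' q in place of the fold, genes that share no locus and the chromosome by ortholog. Added after the data were seen were genes not listed at 0 in a library of the tissue, and each of these settings for the genes called in male heads.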

Additional observations from a re-analysis of the deposited data

Results flagged for a closer look

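Of the genes named by the rule, 8 differed past 2-fold in opposite directions between the strains in heads and ovaries. With 1 library per strain and tissue the difference between the tissues was not tested for any of them. The values are log2(FPKM + 1), CSaY minus CS. Yp3 was 1.93 in heads and -1.93 in ovaries, and LOC101891084 of its ortholog group was 2.69 in heads and -2.07 in ovaries. LOC101890274 was 2.31 in heads and -2.00 in ovaries, and LOC101890487 was 3.85 in heads and -1.55 in ovaries. LOC101900929 was -1.71 in heads and 1.57 in ovaries, and LOC101897191 was -2.24 in heads and 2.19 in ovaries. LOC101901284 was -1.57 in heads and 4.74 in ovaries, where it was listed at 0 in CS. LOC101898400 was -14.15 in heads, where it was listed at 0 in CSaY, and 1.96 in ovaries.

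Of these 8 genes, yp3, LOC101900929, LOC101890274 and LOC101890487 were called in male heads in the authors' deposited table, each in the direction of the ovaries. LOC101900929, at 7.04 FPKM in CSaY and 25.3 FPKM in CS female heads, stood at 20.1 FPKM in CSaY and 10.5 FPKM in CS male heads. LOC101890487, at 29.4 FPKM in CSaY and 1.11 FPKM in CS female heads, stood at 21.8 FPKM in CSaY and 49.1 FPKM in CS male heads.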

How the results depend on the processing

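No paired analysis was possible because each female group holds 1 library and its replicate numbers pair nothing, and leaving out a library leaves no comparison. With a pseudocount of 0.1, median-centred differences (shifts of 0.011 in heads and 0.0077 in ovaries), q below 0.01 in males or without genes listed at 0 in a library of the tissue, every count stayed within 1.5 times its value. With a minimum of 1 FPKM, 281 genes were past 2-fold in ovaries, 11 in both tissues with the same sign and 38 with opposite signs, and 17 genes called in male heads were opposite in ovaries. With no minimum these 4 counts were the same, and 4870 genes shared a sign. With a minimum of 10 FPKM, 1 gene remained with the same sign and 8 with opposite signs, and 0 genes of the same sign were called against their direction in male heads. At 1.5-fold, 1192 genes differed in heads and 401 in ovaries, 28 with the same sign and 63 with opposite signs. Of those 28, 1 was called in the same and 4 in the opposite direction in male heads, and 1 in each direction in testes. Genes called in male heads were then 59 the same way and 212 the opposite way in female heads, and 33 and 14 in ovaries. At 4-fold, 98 genes differed in heads and 43 in ovaries, 0 with the same sign and 3 with opposite signs. Genes called in male heads were then 12 the same way and 20 the opposite way in female heads, and 3 and 4 in ovaries, so the ovary majority did not hold there. With the q of the authors' deposited table, 73 genes differed in heads and 28 in ovaries, and 0 in both in either direction. Among genes that share no locus, 2 were past 2-fold with the same sign. Without a fold, genes of one sign were called 39 the same way and 77 the opposite way in male heads, and 93 and 107 in testes. By ortholog, chromosome 3 had 3.71% of genes past 2-fold in heads and 1.51% in ovaries. Of 176 values of named genes under other settings, 3 crossed 2-fold and 0 turned round. The cause of these changes was not tested. Read depth is unknown, so no counting error can be given for low values.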

Other observations

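The glutathione S-transferase genes of the GST-6A ortholog group did not move together in female heads. LOC101895555 stood at 399.3 FPKM in CSaY and 190.7 FPKM in CS heads, and LOC101894873 on the same scaffold at 451.5 FPKM in CSaY and 241.5 FPKM in CS heads. GST-6A itself stood at 821.9 FPKM in CSaY and 1064 FPKM in CS heads. In male heads the first gene had the reverse order, with 129.6 FPKM in CSaY and 240.6 FPKM in CS, as did the second, with 148.1 FPKM in CSaY and 285.0 FPKM in CS. In ovaries the group had 1 gene at the minimum, GST-6A, at 7.53 FPKM in CSaY and 7.81 FPKM in CS.

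Genes of the ortholog group of Mda2 were all lower in CSaY female heads, 4 of 4 at the minimum and none past 2-fold. Of all genes 3748 of 7318 were lower there. LOC101899458 stood at 106.0 FPKM in CSaY and 159.1 FPKM in CS female heads, and at 201.9 FPKM in CSaY and 295.3 FPKM in CS male heads. The clock neuropeptide gene pdf was lower in CSaY female heads, with the values above, and stood at 87.3 FPKM in CSaY and 63.2 FPKM in CS male heads.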
